A study of Mus musculus with 12 samples.

Results

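B cell identity genes are genes whose RNA marks B lymphocytes within a mixed tissue. A set of 31 of them was chosen by symbol, with earlier results of these data known. The shares of all genes given beside member counts are thus a description and not a test. Of the 31, 30 had a probe set among the 24704 genes measured in whole mouse lung. Cd38 was not analysed here. The set held 6 genes of the B cell receptor and the proteins next to it, 10 genes of coreceptors and other surface regulators, 7 genes of transcription factors, 2 genes of receptors for survival factors of the TNF family, and 5 further surface or signalling genes.

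The lungs came from 4 groups with 3 arrays each. Hypoxic knockouts and normoxic knockouts were Nfat5(EC)-/- mice, in which Nfat5, a transcription factor best known for the response to osmotic stress, had been removed from endothelial cells by 1 mg of tamoxifen on each of 5 days. Hypoxic controls and normoxic controls were Nfat5fl/fl mice given the solvent miglyol instead, so the floxed alleles were common to all 4 groups and the deletion cannot be told apart from the drug. Animals of both sexes were 10 to 12 weeks old at treatment and recovered for 2 to 3 weeks before 21 days of hypoxia or of normoxia. Lungs were rinsed with cold Ringer solution before RNA was extracted, which washes blood out of the vessels. The deletion used a Cre driver not given in the sources used here.

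Since only cells that line vessels were targeted, whole lung still holds every other cell that expresses the gene. Nfat5 RNA was 8.17, 8.46 and 8.40 (log2) in hypoxic knockouts, against 8.61, 8.16 and 8.51 in hypoxic controls. In normoxia it was 8.59, 8.80 and 8.62 in knockouts, against 9.01, 9.39 and 8.92 in controls. The normoxic groups did not overlap and the hypoxic groups did, and neither difference was called by limma (adjusted p = 0.62 in normoxia and 0.97 in hypoxia). The design text counts 4 mice in a group and says that lungs with attached thymus, or with too weak an expression response to hypoxia, were dropped, so the hypoxic lungs were picked partly on expression. Replicates were taken as separate mice.

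B cells recognise antigen through a surface immunoglobulin that is coupled to the Cd79a and Cd79b signalling chains. Kinases such as Blk and Btk and the adaptors Blnk and Bank1 carry or tune the signal inside the cell, while coreceptors such as Cr2 and Cd22 raise or lower its threshold. Pax5 and Ebf1 are transcription factors that set up and hold the B cell programme. In the lung, B cells are found in the vessels, in the tissue and in bronchus-associated lymphoid clusters. In a whole-lung extract, fewer B cells and less RNA of these genes per B cell cannot be told apart.

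Chronic hypoxia came with lower RNA of many of these genes in both genotypes. In knockout lungs 6 of the 30 fell and 0 rose, where 0.502% of all genes tested were called lower, 0.64% higher and 1.14% in either direction at a limma adjusted p under 0.05. In control lungs 10 of the 30 fell and 0 rose, where 6.14% of all genes were called lower, 5.36% higher and 11.5% in either direction. Among members at an unadjusted p under 0.05, 1 lay higher in hypoxic knockouts and 2 in hypoxic controls. The shares of all genes above are for the adjusted p, and none is given for the unadjusted threshold. The median log2 difference between hypoxia and normoxia was -0.56 over the 30 members in knockout lungs, beside 0.00 over all genes. It was -0.39 in control lungs, beside 0.01 over all genes. The counts depended on single animals: 3 members fell in knockouts without hypoxic knockout 4 or without normoxic knockout 2, where 0.324% and 0.287% of all genes were called in either direction. In controls 3 fell without normoxic control 2, where 3.96% of all genes were called. Leaving out hypoxic control 2 or normoxic control 1 gave 5 in controls, beside 3.27% and 4.39% of all genes. The share of all genes called was thus lower as well under each of these settings.

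The direction was shared widely. The difference lay below 0 in 28 of 30 members in knockout lungs and in 26 of 30 in control lungs. For 26 members it lay below 0 in both genotypes, as it did for 31% of all genes, and for Vpreb3 and Cd83 it lay above 0 in both, as for 34.2% of all genes. All 3 hypoxic arrays lay below all 3 normoxic arrays for 17 members in knockout lungs, where 8.97% of all genes had such a gap, and for 12 members in control lungs, where 13.7% had it. The opposite gap was seen for 1 member in knockouts, Vpreb3, and for 1 in controls, Cd83, where 10.9% and 14% of all genes had it. A downward gap was present in both genotypes for 9 members, against 3.64% of all genes. Averaged over both genotypes, 15 members fell and 1 rose, and 7.4% of all genes were called lower, 7.27% higher and 14.7% in either direction.

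**Figure D1:**
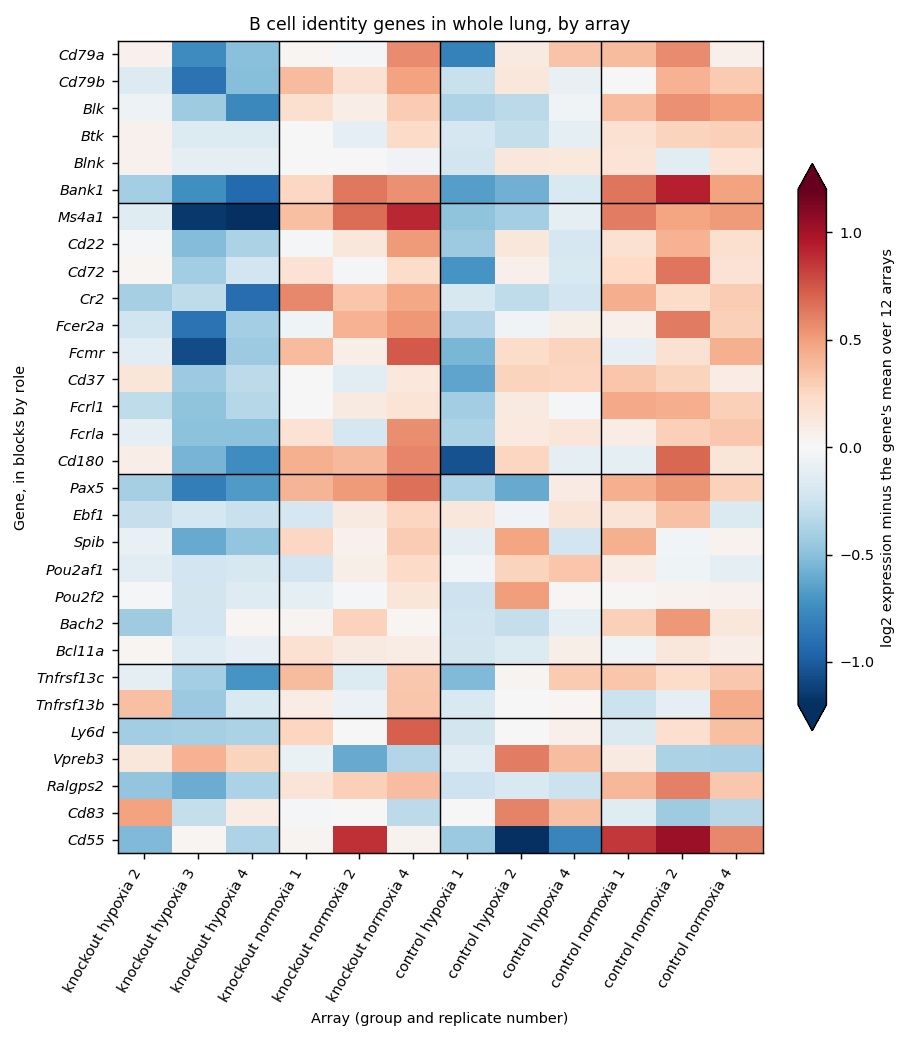
Each row is 1 of the 30 B cell identity genes, in blocks by role, and each column is 1 array; colour gives log2 expression minus that gene's mean over the 12 arrays, and colours saturate at both ends of the scale. Hypoxic knockouts 3 and 4 and hypoxic control 1 are mostly blue and the normoxic arrays mostly red, hypoxic knockout 2 and hypoxic controls 2 and 4 are mixed, and Vpreb3 runs the other way.

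Bank1, Ms4a1, Pax5, Cr2 and Ralgps2 fell in both genotypes, and 0.381% of all genes fell in both. Values are given in the order of replicates 2, 3 and 4 for hypoxic knockouts and 1, 2 and 4 for the other groups. Bank1, an adaptor that links the B cell receptor to calcium release, was 6.07, 5.74 and 5.55 (log2) in hypoxic knockouts, against 6.73, 7.12 and 7.03 in normoxic knockouts. In controls Bank1 was 5.82, 5.91 and 6.30 in hypoxia, against 7.12, 7.42 and 6.96 in normoxia. The hypoxic and normoxic arrays were well apart in both genotypes, and the difference was nearly the same in each. It was -1.17 ± 0.17 (limma SE, adjusted p = 0.0097) in knockouts and -1.16 ± 0.17 (adjusted p = 0.0051) in controls, and averaged over both genotypes the level was 2.24-fold lower in hypoxia (adjusted p = 0.00035).

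Ms4a1 encodes CD20, a membrane protein of mature B cells. Ms4a1 was 6.36, 5.36 and 5.29 (log2) in hypoxic knockouts, against 6.87, 7.18 and 7.42 in normoxic knockouts. In controls Ms4a1 was 6.03, 6.10 and 6.40 in hypoxia, against 7.13, 6.99 and 7.02 in normoxia. Hypoxic knockout 2 lay about a log2 unit above the other hypoxic knockouts, yet still below every normoxic array. Ms4a1 fell by 1.49 ± 0.24 in knockouts (limma adjusted p = 0.015) and by 0.87 ± 0.24 in controls (adjusted p = 0.040).

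Pax5, the factor that commits precursors to the B lineage, was 4.50, 4.06 and 4.21 (log2) in hypoxic knockouts, against 5.30, 5.41 and 5.55 in normoxic knockouts. In controls Pax5 was 4.51, 4.29 and 4.99 in hypoxia, against 5.32, 5.42 and 5.17 in normoxia. The groups did not overlap in either genotype, although hypoxic control 4 came near the normoxic controls. Pax5 fell by 1.16 ± 0.17 in knockouts (limma adjusted p = 0.0085) and by 0.71 ± 0.17 in controls (adjusted p = 0.022).

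Cr2 encodes a receptor for complement fragments that lowers the threshold for B cell activation and is high on marginal zone and follicular B cells. Cr2 was 3.37, 3.47 and 2.86 (log2) in hypoxic knockouts, against 4.35, 4.11 and 4.23 in normoxic knockouts. In controls Cr2 was 3.58, 3.47 and 3.55 in hypoxia, against 4.21, 4.00 and 4.08 in normoxia. The groups were apart in both genotypes, with the hypoxic controls within a narrow range. Cr2 fell by 1.00 ± 0.14 in knockouts (limma adjusted p = 0.0079) and by 0.56 ± 0.14 in controls (adjusted p = 0.027). Its mean over all arrays, 3.77, lay below 4.54, the median of all values, so the probe set sat in the range where arrays read weak signal.

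Ralgps2, a guanine nucleotide exchange factor for Ral GTPases, was 5.67, 5.55 and 5.75 (log2) in hypoxic knockouts, against 6.29, 6.42 and 6.51 in normoxic knockouts. In controls Ralgps2 was 5.89, 5.95 and 5.88 in hypoxia, against 6.54, 6.74 and 6.46 in normoxia. All 6 hypoxic arrays lay below all 6 normoxic arrays with little spread. Ralgps2 fell by 0.75 ± 0.10 in knockouts (limma adjusted p = 0.0051) and by 0.68 ± 0.10 in controls (adjusted p = 0.0048). Averaged over both genotypes it had the smallest adjusted p of the 30 members (0.00019), with a level 1.64-fold lower in hypoxia.

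These calls differed in how far they rested on single arrays or settings. Ralgps2 kept its call in 21 of 22 other settings in each genotype. Bank1 kept it in 18 of 22 in knockouts and in 21 of 22 in controls, Cr2 in 21 of 21 and 15 of 21, and Pax5 in 20 of 22 and 16 of 22. Ms4a1 had the least stable calls of the 5, kept in 15 of 22 settings in knockouts and 11 of 22 in controls.

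**Figure D2:**
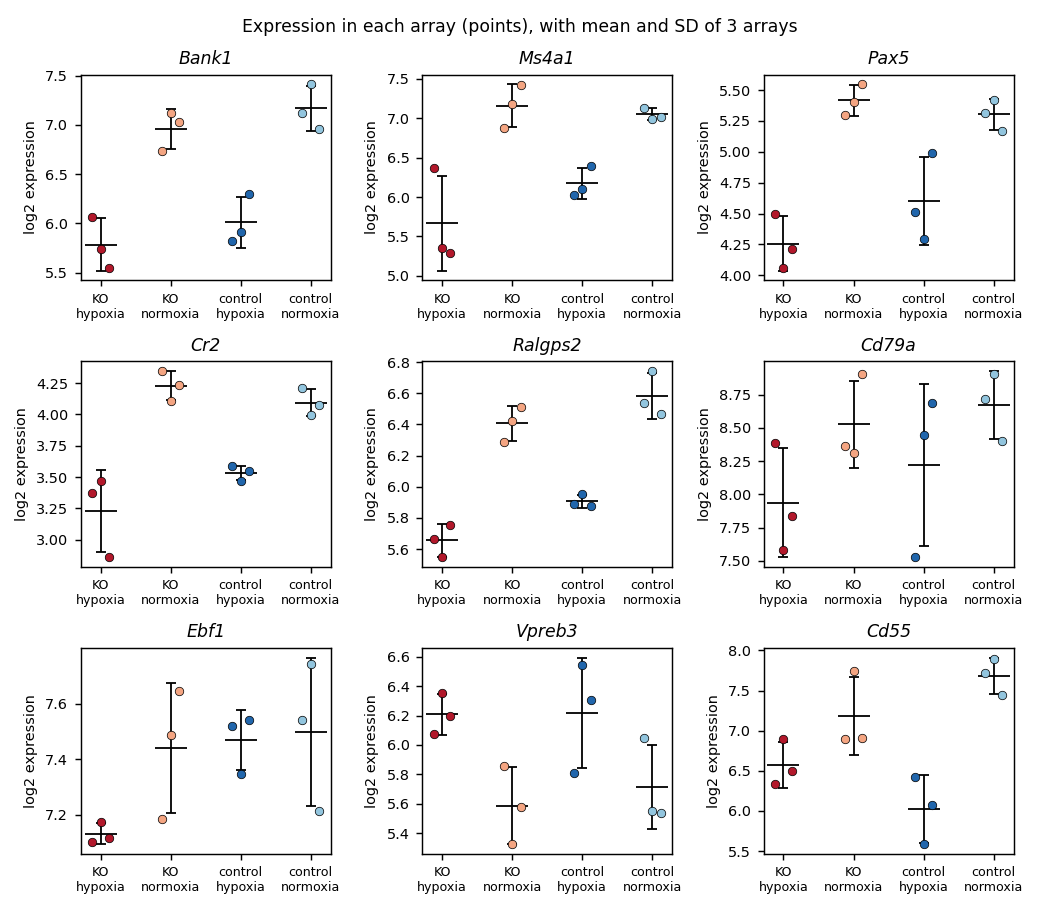
Points are the log2 expression of single arrays for 9 B cell identity genes, in hypoxic and normoxic knockouts and in hypoxic and normoxic controls; bars give the mean and SD of 3 arrays, and each panel has its own axis. Bank1, Ms4a1, Pax5, Cr2 and Ralgps2 show hypoxic arrays below normoxic arrays in both genotypes, Cd79a and Ebf1 in controls overlap, Vpreb3 runs the other way, and Cd55 is lowest in hypoxic controls.

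The stretch of DNA just before the transcription start is shown for 3 of the genes that fell in both genotypes and for Vpreb3, the member that rose, because these genes moved in opposite directions. Of the 30 measured members, 25 had a promoter sequence in RefSeq (GRCm38.p6). Windows of 250 bases before the start were searched on both strands for 3 motifs, which do not overlap in any window printed here. Lower case is the plain sequence, 5′ to 3′ on the strand of the gene, and capitals mark a match.
Bank1, chr3:136326067-136326316, minus strand: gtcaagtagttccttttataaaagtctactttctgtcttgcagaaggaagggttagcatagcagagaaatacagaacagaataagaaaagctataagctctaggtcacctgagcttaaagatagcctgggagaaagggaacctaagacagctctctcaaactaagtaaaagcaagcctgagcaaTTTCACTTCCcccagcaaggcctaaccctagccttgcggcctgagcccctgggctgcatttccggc
Pax5, chr4:44710695-44710944, minus strand: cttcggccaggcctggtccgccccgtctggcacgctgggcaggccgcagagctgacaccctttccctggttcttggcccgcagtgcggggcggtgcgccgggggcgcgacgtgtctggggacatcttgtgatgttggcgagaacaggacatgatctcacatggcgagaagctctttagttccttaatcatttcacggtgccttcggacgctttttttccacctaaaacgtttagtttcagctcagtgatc
Cr2, chr1:195176720-195176969, minus strand: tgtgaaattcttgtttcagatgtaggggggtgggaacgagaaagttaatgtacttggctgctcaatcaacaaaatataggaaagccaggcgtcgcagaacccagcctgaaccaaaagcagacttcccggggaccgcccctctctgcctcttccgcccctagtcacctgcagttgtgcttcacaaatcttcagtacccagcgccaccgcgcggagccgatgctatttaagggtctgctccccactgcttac
Vpreb3, chr10:75948050-75948299, plus strand: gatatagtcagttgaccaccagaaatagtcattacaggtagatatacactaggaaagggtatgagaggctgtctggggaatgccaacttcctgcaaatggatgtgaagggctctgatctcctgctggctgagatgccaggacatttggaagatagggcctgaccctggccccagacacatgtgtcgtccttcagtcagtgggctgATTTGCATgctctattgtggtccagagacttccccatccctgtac

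GGAA and GAAA parted by any 2 bases, a joint site for Ets factors such as Spib with Irf factors, occurred in the windows of Bank1, Bach2 and Pou2f2 and in 2.3% of all 32851 windows. In Bank1 its match on the reverse strand, TTTCACTTCC, lay 66 to 57 bases before the start. The octamer ATGCAAAT, bound by Pou2f2 with its partner Pou2af1, occurred in the windows of Vpreb3 and Blnk and in 1.6% of all windows. In Vpreb3 the match ATTTGCAT lay 45 to 38 bases before the start. TCCC and GGGA parted by any 2 bases, a site of Ebf1, occurred in the window of Cd22 and in 0.779% of all windows. The Pax5 and Cr2 windows held none of these 3 spellings, nor did the windows of Ralgps2, which are not printed. Blnk, which holds the octamer like Vpreb3, was not called in either genotype. A link between these motifs and the direction of change was not tested. A match is a description of letters, and binding was not measured.

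Among the genes of the receptor and its kinases and adaptors, the difference lay below 0 in 6 of 6 in both genotypes, and 2 fell in knockouts and 3 in controls. Cd79a, the signalling chain that every B cell carries, was not among them. It was 8.39, 7.58 and 7.84 (log2) in hypoxic knockouts, against 8.37, 8.31 and 8.90 in normoxic knockouts, and 7.53, 8.44 and 8.69 in hypoxic controls, against 8.71, 8.91 and 8.40 in normoxic controls. Hypoxic knockout 2 and hypoxic controls 2 and 4 lay within the normoxic range. The difference of Cd79a was -0.59 ± 0.29 in knockouts (limma adjusted p = 0.44), -0.45 ± 0.29 in controls (adjusted p = 0.35) and -0.52 ± 0.21 over both genotypes (adjusted p = 0.12).

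Cd79b, the partner of Cd79a, was 7.82, 7.10 and 7.47 (log2) in hypoxic knockouts, against 8.36, 8.17 and 8.47 in normoxic knockouts. In controls Cd79b was 7.72, 8.12 and 7.89 in hypoxia, against 7.99, 8.40 and 8.29 in normoxia. The groups were apart in knockouts and overlapped in controls. Cd79b fell by 0.87 ± 0.18 in knockouts (limma adjusted p = 0.045), a call kept in 9 of 22 other settings, and the difference in controls was -0.32 ± 0.18 (adjusted p = 0.27). The difference between those changes, the interaction, was -0.55 ± 0.25 and was not called (adjusted p = 0.61). Cd79b fell by 0.59 ± 0.13 over both genotypes (adjusted p = 0.010).

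Blk, a Src family kinase of B cells, was 5.07, 4.70 and 4.35 (log2) in hypoxic knockouts, against 5.32, 5.21 and 5.44 in normoxic knockouts, and 4.76, 4.81 and 5.09 in hypoxic controls, against 5.50, 5.68 and 5.63 in normoxic controls. Hypoxic arrays lay below normoxic arrays in each genotype. Blk fell by 0.72 ± 0.16 in controls (limma adjusted p = 0.017), while its difference in knockouts was -0.62 ± 0.16 (adjusted p = 0.10). Btk, the kinase that is mutated in agammaglobulinaemia in humans, was 5.46, 5.25 and 5.25 in hypoxic knockouts, against 5.42, 5.31 and 5.64 in normoxic knockouts, and 5.21, 5.13 and 5.31 in hypoxic controls, against 5.59, 5.68 and 5.69 in normoxic controls. The knockout groups overlapped and the control groups did not. Btk fell by 0.44 ± 0.10 in controls (adjusted p = 0.020), with a difference of -0.14 ± 0.10 in knockouts (adjusted p = 0.65). Over both genotypes Blk fell by 0.67 ± 0.11 (adjusted p = 0.0037) and Btk by 0.29 ± 0.07 (adjusted p = 0.021). Blnk, the adaptor below Syk, differed by -0.04 ± 0.11 in knockouts and by -0.05 ± 0.11 in controls and was not called in either.

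For the coreceptors and surface regulators, the difference lay below 0 in 10 of 10 in both genotypes. Ms4a1 and Cr2 fell in knockouts, and Ms4a1, Cr2 and Fcrl1 fell in controls. Fcrl1, an Fc receptor-like protein that boosts receptor signals, was 4.21, 4.03 and 4.17 (log2) in hypoxic knockouts, against 4.52, 4.62 and 4.68 in normoxic knockouts, and 4.10, 4.62 and 4.49 in hypoxic controls, against 4.96, 4.95 and 4.80 in normoxic controls. The groups were apart in both genotypes. Fcrl1 fell by 0.50 ± 0.12 in controls (limma adjusted p = 0.025) and by 0.49 ± 0.09 over both genotypes (adjusted p = 0.0050), with a difference of -0.47 ± 0.12 in knockouts (adjusted p = 0.11).

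Cd22, Cd72 and Fcer2a fell only when both genotypes were averaged. Cd22, a lectin that restrains the receptor, was 6.63, 6.13 and 6.26 (log2) in hypoxic knockouts, against 6.63, 6.78 and 7.15 in normoxic knockouts, and 6.21, 6.78 and 6.45 in hypoxic controls, against 6.83, 7.06 and 6.84 in normoxic controls. Cd72, an inhibitory coreceptor, was 5.49, 5.04 and 5.23 in hypoxic knockouts, against 5.63, 5.45 and 5.68 in normoxic knockouts, and 4.75, 5.52 and 5.27 in hypoxic controls, against 5.70, 6.10 and 5.63 in normoxic controls. Both genes overlapped between the knockout groups and were apart, narrowly, between the control groups. Fcer2a, the low-affinity receptor for IgE known as CD23, was 5.79, 5.14 and 5.62 in hypoxic knockouts, against 5.98, 6.44 and 6.55 in normoxic knockouts, and 5.68, 5.98 and 6.10 in hypoxic controls, against 6.09, 6.65 and 6.32 in normoxic controls. Here the overlap was in the controls, by 1 array. Over both genotypes Cd22 fell by 0.47 ± 0.13 (limma adjusted p = 0.028), Cd72 fell by 0.48 ± 0.13 (adjusted p = 0.034) and Fcer2a fell by 0.62 ± 0.15 (adjusted p = 0.016).

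Fcmr, Cd37, Fcrla and Cd180 were not called in any comparison. Fcmr, a receptor for IgM, differed by -0.95 ± 0.27 in knockouts (limma adjusted p = 0.14) and by -0.19 ± 0.27 in controls (adjusted p = 0.71). Cd180, a Toll-like receptor relative on B cells and myeloid cells, differed by -0.87 ± 0.31 in knockouts (adjusted p = 0.25) and by -0.54 ± 0.31 in controls (adjusted p = 0.29). These are sizes like those of called members, with wider spread: Cd180 had an SD of 0.43 in hypoxic knockouts and 0.67 in hypoxic controls. Fcrla differed by -0.54 ± 0.19 in knockouts and by -0.27 ± 0.19 in controls. Cd37, a tetraspanin that other leukocytes also carry, differed by -0.20 ± 0.22 in knockouts and by -0.27 ± 0.22 in controls.

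Of the 7 transcription factors 1 fell in knockouts and 2 fell in controls. Their difference lay below 0 in 7 of 7 in knockouts and in 5 of 7 in controls, with medians of -0.31 and -0.10. Bach2, a repressor that holds B cells back from becoming plasma cells, was 5.20, 5.39 and 5.65 (log2) in hypoxic knockouts, against 5.65, 5.90 and 5.65 in normoxic knockouts, and 5.38, 5.34 and 5.51 in hypoxic controls, against 5.91, 6.15 and 5.76 in normoxic controls. Hypoxic knockout 4 was level with, and just below, the lowest normoxic knockouts, while the control groups were apart. Bach2 fell by 0.53 ± 0.13 in controls (limma adjusted p = 0.027) and by 0.42 ± 0.09 over both genotypes (adjusted p = 0.012), with a difference of -0.32 ± 0.13 in knockouts (adjusted p = 0.33).

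Ebf1 was 7.10, 7.18 and 7.12 (log2) in hypoxic knockouts, against 7.18, 7.49 and 7.64 in normoxic knockouts, and 7.52, 7.35 and 7.54 in hypoxic controls, against 7.54, 7.74 and 7.21 in normoxic controls. The control groups overlapped throughout, and the knockout groups met at the lowest normoxic array. The difference was -0.31 ± 0.14 in knockouts (limma adjusted p = 0.40) and -0.03 ± 0.14 in controls (adjusted p = 0.93). Ebf1 is also expressed by pericytes, fibroblasts and fat precursors. Of 12 markers of such mesenchymal cells, 0 were called in knockouts by limma (5 at an unadjusted p under 0.05, all higher), against 5 that rose in controls: Col1a1 by 0.91, Col1a2 by 0.84, Cspg4 by 0.89, Lamc3 by 0.95 and Abcc9 by 0.48. Their part in the Ebf1 values was not tested.

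Spib, Pou2af1, Pou2f2 and Bcl11a were not called in any comparison. Spib, an Ets factor of B cells and plasmacytoid dendritic cells, differed by -0.59 ± 0.19 in knockouts (limma adjusted p = 0.21) and by -0.10 ± 0.19 in controls (adjusted p = 0.79). Pou2af1, the coactivator that works with Pou2f2, differed by -0.20 ± 0.13 in knockouts (adjusted p = 0.57) and by 0.22 ± 0.13 in controls (adjusted p = 0.30). Pou2f2 differed by -0.13 ± 0.15 in knockouts and by 0.05 ± 0.15 in controls. Pou2af1 and Pou2f2 were the 2 members whose differences had opposite signs in the genotypes. Bcl11a differed by -0.20 ± 0.10 in knockouts and by -0.16 ± 0.10 in controls.

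Neither receptor of the TNF family was called. Tnfrsf13c, the BAFF receptor on which mature B cells depend, was 6.30, 6.01 and 5.70 (log2) in hypoxic knockouts, against 6.79, 6.24 and 6.74 in normoxic knockouts, and 5.88, 6.44 and 6.72 in hypoxic controls, against 6.75, 6.63 and 6.74 in normoxic controls. Values overlapped by 1 array in each genotype. The difference was -0.59 ± 0.21 in knockouts (limma adjusted p = 0.26) and -0.35 ± 0.21 in controls (adjusted p = 0.32). Tnfrsf13b, the receptor TACI, differed by -0.20 ± 0.21 in knockouts and by -0.07 ± 0.21 in controls. Of 10 ligands and chemokines that feed or attract B cells, 1 was called in each genotype. This was Cxcl12, a chemokine made by stromal and endothelial cells, which rose by 0.89 ± 0.14 in knockouts (adjusted p = 0.011) and by 1.23 ± 0.14 in controls (adjusted p = 0.0017). Tnfsf13b, which encodes BAFF, differed by 0.17 in knockouts and by 0.23 in controls (adjusted p = 0.68 and 0.29), and Cxcl13, the chemokine of B cell follicles, by -0.27 and by -0.92 (adjusted p = 0.89 and 0.20).

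**Figure D3:**
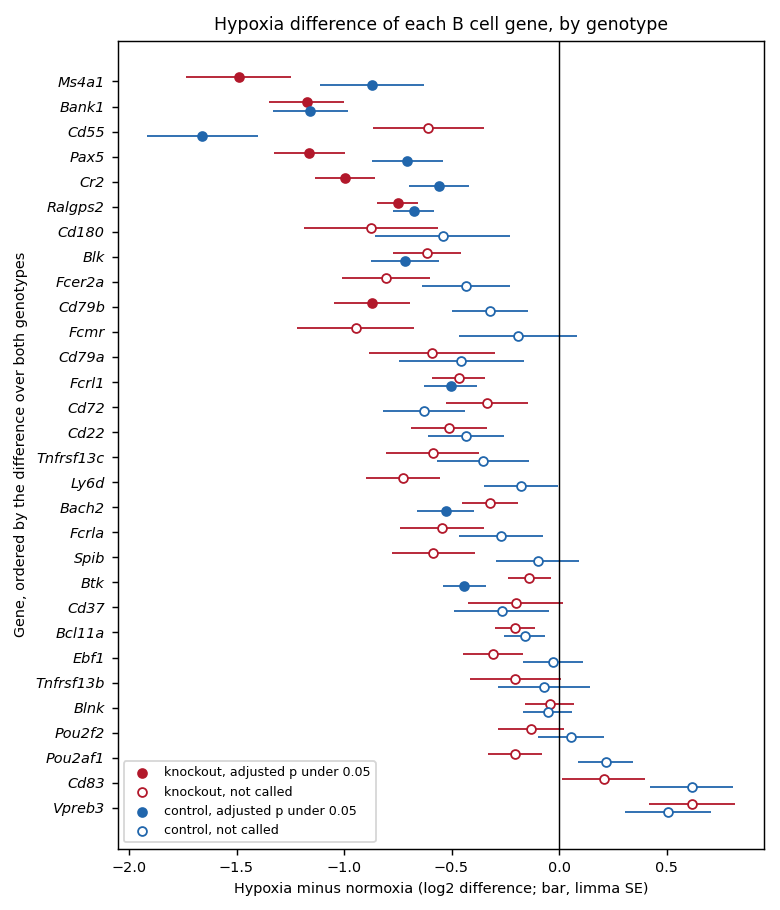
Circles give the log2 difference between hypoxia and normoxia for each of the 30 genes in knockout lungs (red) and control lungs (blue), with the limma SE as a bar; filled circles have an adjusted p under 0.05. Ms4a1 has the lowest value in knockouts (-1.49) and Cd55 in controls (-1.66), while Vpreb3 and Cd83 lie above 0 in both genotypes.

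Vpreb3 was the 1 member that rose. Its product associates with immunoglobulin chains during their assembly in B cells and their precursors. Vpreb3 was 6.07, 6.35 and 6.20 (log2) in hypoxic knockouts, against 5.86, 5.33 and 5.58 in normoxic knockouts, and 5.81, 6.54 and 6.30 in hypoxic controls, against 6.04, 5.55 and 5.54 in normoxic controls. The knockout groups were apart, and in controls hypoxic array 1 lay within the normoxic range. Vpreb3 rose by 0.56 ± 0.14 over both genotypes (limma adjusted p = 0.022), with differences of 0.62 ± 0.20 in knockouts (adjusted p = 0.19) and 0.51 ± 0.20 in controls (adjusted p = 0.12). The call was lost when hypoxic control 2, normoxic knockout 2 or normoxic control 2 was left out. Cd83, a surface protein that activated B cells and mature dendritic cells carry, was 6.44, 5.67 and 6.04 in hypoxic knockouts, against 5.94, 5.95 and 5.63 in normoxic knockouts, and 5.96, 6.55 and 6.30 in hypoxic controls, against 5.81, 5.52 and 5.62 in normoxic controls. Its difference was 0.21 ± 0.19 in knockouts (adjusted p = 0.76) and 0.62 ± 0.19 in controls, where the groups were apart (adjusted p = 0.060).

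Ly6d, a surface protein that marks early commitment to the B lineage, was 6.25, 6.26 and 6.28 (log2) in hypoxic knockouts, against 6.92, 6.67 and 7.38 in normoxic knockouts, and 6.45, 6.66 and 6.72 in hypoxic controls, against 6.49, 6.86 and 7.02 in normoxic controls. The knockout groups were apart, with the hypoxic arrays almost equal, and the control groups overlapped. Ly6d fell by 0.45 ± 0.12 over both genotypes (limma adjusted p = 0.030), with differences of -0.72 ± 0.17 in knockouts (adjusted p = 0.079) and -0.18 ± 0.17 in controls (adjusted p = 0.56).

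Cd55 encodes decay-accelerating factor, which protects cells from complement and is made by many cell types of the lung. It was 6.34, 6.89 and 6.50 (log2) in hypoxic knockouts, against 6.90, 7.75 and 6.91 in normoxic knockouts, and 6.42, 5.58 and 6.07 in hypoxic controls, against 7.71, 7.89 and 7.45 in normoxic controls. The control groups were far apart, while hypoxic knockout 3 came within a few hundredths of normoxic knockouts 1 and 4. Cd55 fell by 1.66 ± 0.26 in controls, a level 3.16-fold lower (limma adjusted p = 0.0053), and its difference in knockouts was -0.61 ± 0.26 (adjusted p = 0.35). With the mean of nuclear RNA without Xist, described with the other marker genes, as a covariate the difference in controls was -0.29 (adjusted p = 0.92). That setting was added after the data were seen, and Cd55 kept its call in controls with the planned mean, which includes Xist. The interaction was 1.05 ± 0.37 and was not called (adjusted p = 0.57), so a weaker change in knockouts was not shown.

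The genotypes were then set against each other at the same oxygen level. In hypoxia 0 of the 30 members and 0% of all genes were called by limma. At an unadjusted p under 0.05 there were 5 members, without the share of all genes at that threshold. The 5 were Pou2af1, Ralgps2, Cd79b, Ebf1 and Spib, all lower in knockouts, by 0.37, 0.25, 0.45, 0.34 and 0.43, each with an adjusted p of 0.95. In normoxia 0 members and 0.00405% of all genes were called, and 1 member lay at an unadjusted p under 0.05. This was Fcrl1, with a difference of -0.30 ± 0.12 (adjusted p = 0.67). Averaged over both oxygen levels 0 members and 0% of all genes were called, and 2 members lay at an unadjusted p under 0.05. Since the share of all genes at that unadjusted threshold is not given, these counts cannot be read as an excess among the members.

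Knockout lungs lay below control lungs for 25 of the 30 members in hypoxia and for 18 in normoxia, with median log2 differences of -0.24 and -0.06. Over all genes the difference lay below 0 for 50.5% in hypoxia and 51.1% in normoxia, with medians of -0.0013 and -0.0039. In hypoxia all knockout arrays were lower than all control arrays for 5 members (Cr2, Ly6d, Ralgps2, Pou2af1 and Ebf1) and higher for 0, where 5.19% and 4.55% of all genes had such gaps. In normoxia they lay below for 2 (Fcrl1 and Blk) and above for 0, where 6.22% and 5.46% of all genes did. Ms4a1 differed by -0.51 ± 0.24 in hypoxia and by 0.11 ± 0.24 in normoxia, and Bank1 by -0.22 ± 0.17 and -0.21 ± 0.17. The interaction, the hypoxia change in knockouts minus that in controls, was called for 0 members by limma and for 0.00405% of all genes. At an unadjusted p under 0.05 there were 5 members, again without the share of all genes at that threshold. For the members the interaction had a median of -0.16 and lay below 0 in 21 of 30. Over all genes the median was -0.00098 and 50.3% lay below 0. A different response of the members in the genotypes was therefore not shown. It rests on 3 arrays a group, and the limma SE of the interaction was 0.14 for Ralgps2, 0.34 for Ms4a1 and 0.37 for Cd55, so moderate differences could not be detected.

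Animals of 1 group differed more in these genes than in the median gene, most clearly in hypoxia and only slightly among normoxic controls. All genes include many with weak signal, and the spread was not compared at like expression. The median SD of the members was 0.26 in hypoxic knockouts and 0.27 in hypoxic controls, beside 0.12 and 0.14 for all genes. It was 0.18 in normoxic knockouts and 0.16 in normoxic controls, beside 0.12 and 0.14 for all genes. In 3 of the 4 groups at least 1 animal stood at one end of its group for most members. Hypoxic knockout 2 was the highest of its group for 23 of the 30 members and for 33.5% of all genes. Hypoxic control 1 was the lowest of its group for 22 of the 30 and for 35.5% of all genes, and normoxic knockout 4 the highest of its group for 21 and for 32.6%. Hypoxic knockout 3 was the lowest of its group for 18 members and for 34.1% of all genes. Hypoxic control 4 was the highest of its group for 16 members and for 30.3% of all genes. Among normoxic controls no animal stood out in this way: replicates 1, 2 and 4 were the highest for 9, 14 and 7 of the 30 and the lowest for 12, 6 and 12.

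Other marker genes also differed between these animals. The mean of 3 red cell genes, each centred on its own mean over the 12 arrays, was 0.43, 0.16 and -0.34 (log2) in hypoxic knockouts 2, 3 and 4, against -0.31, -0.34 and 0.69 in normoxic knockouts 1, 2 and 4. It was -0.16, -0.06 and 0.11 in hypoxic controls 1, 2 and 4, against -0.35, -0.33 and 0.50 in normoxic controls. For the red cell genes, hypoxic knockout 2, hypoxic control 4 and normoxic knockout 4 were again the highest of their groups. Hypoxic control 1 was again the lowest of its group. Hypoxic knockout 3, the lowest of its group for most members, was not the lowest for the red cell genes. Normoxic control 4, which was not at an end for most members, was also high. Cd37, a member, is also among the 13 genes of all leukocytes used next. The mean of the 13 genes was 0.01, -0.19 and -0.16 in hypoxic knockouts, against 0.16, 0.05 and 0.08 in normoxic knockouts. It was -0.28, 0.08 and 0.03 in hypoxic controls, against 0.10, 0.08 and 0.04 in normoxic controls. Here too hypoxic knockout 2 was the highest of its group, and hypoxic knockout 3 and hypoxic control 1 were the lowest of theirs. Normoxic knockout 4 and hypoxic control 4 were not the highest of theirs. Hypoxic knockout 2 was also the 1 array of its group with high Y-linked genes, with a mean of 5.36 (log2), against 2.99 and 3.26 in the others. The part of these genes in the spread of the members was not tested.

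The mean of the 30 members, each centred on its own mean over the 12 arrays, shows the same animals. It was -0.11, -0.45 and -0.40 (log2) in hypoxic knockouts 2, 3 and 4, against 0.13, 0.13 and 0.32 in normoxic knockouts 1, 2 and 4. It was -0.35, -0.02 and 0.01 in hypoxic controls 1, 2 and 4, against 0.21, 0.32 and 0.20 in normoxic controls. Each hypoxic group lay below its normoxic group, but hypoxic controls 2 and 4 were close to the overall mean. Without hypoxic control 1, the median difference in controls was -0.15 in place of -0.39, and 8 members fell and 2 rose (Cd83 and Vpreb3) in place of 10 and 0. Of all genes 11.9% were called in either direction without that array, in place of 11.5%.

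Genes of other tissue were high in 3 arrays, those of brown fat in 2 and those of heart most clearly in normoxic knockouts 2 and 4. Ucp1, the marker of brown fat, reached 9.31 (log2) in normoxic knockout 2 and 7.66 in hypoxic control 1 and was at most 4.28 in the others. Nppa, Myh6 and Myl7, made by heart muscle, were 11.9, 9.64 and 8.91 in normoxic knockout 2 and 9.41, 8.56 and 8.05 in normoxic knockout 4, the animal that was highest of its group for most members, and were at most 8.44, 8.22 and 7.31 in the others. Without normoxic knockout 4, 4 members fell in knockouts, where 0.526% of all genes were called. Without the 2 arrays with high Ucp1, 2 members fell in knockouts (Cr2 and Ralgps2), 6 fell and 2 rose in controls, and 13 fell and 2 rose over both genotypes (Cd83 and Vpreb3 each time), where 0.206%, 11.5% and 10.5% of all genes were called in either direction. Rag1 and Dntt, listed here for developing thymocytes but not specific to them, were at or below 3.62 and 3.11 in all arrays. Of 8 thymocyte markers 0 were called by limma, with 1 at an unadjusted p under 0.05 in knockouts and 2 in controls. Y-linked genes were high in 2 of the 6 hypoxic and 4 of the 6 normoxic arrays, so the sexes were not balanced between the oxygen levels. Dbp minus Arntl, a pair of clock genes, was 5.64 to 6.21 in hypoxic lungs, against -0.10 to 3.72 in normoxic lungs, a gap without overlap in genes that follow the time of day. With the Y-linked mean as a covariate 5 members fell in knockouts, 7 fell in controls, and 11 fell and 0 rose over both genotypes. With it 0.672%, 7.26% and 8.82% of all genes were called in those comparisons, in place of 1.14%, 11.5% and 14.7%. The part of time of day in the B cell values was not tested.

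Noncoding RNAs that remain nuclear, such as Malat1 and Neat1, also moved with oxygen. Averaged over 8 such genes, the level was 6.19 ± 0.20 (log2, SD, n = 3) in hypoxic knockouts, against 6.41 ± 0.24 in normoxic knockouts, and 5.98 ± 0.10 in hypoxic controls, against 6.79 ± 0.19 in normoxic controls. In controls the hypoxic arrays lay below all normoxic arrays. With this mean as a covariate, 0 members and 0% of all genes were called in controls, while the median of the members was -0.725 there. In knockouts 6 members fell with the covariate, as without it, while 0.486% of all genes were called in place of 1.14%. Leaving Xist out of this mean was decided after the data were seen. With Xist in the mean, as planned, 2.03% of all genes were called in controls and 8.52% over both genotypes. Bank1, Ralgps2 and Cd55 kept their calls in controls under that planned setting. In controls the nuclear RNA and the oxygen level moved together to such an extent that they cannot be told apart.

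Genes outside the set give the context. Of 17 other B cell genes measured, 0 were called by limma in knockouts and 0 in controls, with 5 and 6 at an unadjusted p under 0.05 and medians of -0.14 and -0.15. Over both genotypes 4 of them fell: Cxcr5, the receptor for Cxcl13, by 0.49 (adjusted p = 0.029), Ltb, a lymphotoxin subunit, by 0.53 (adjusted p = 0.022), Ccr6 by 0.20 (adjusted p = 0.020) and Cd24a by 0.26 (adjusted p = 0.034). Ccr6 read at most 3.79 in any array, in the range of weak signal. Ciita, the master regulator of MHC class II genes in B cells, dendritic cells and macrophages, rose by 0.73 (adjusted p = 0.017).

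Of 21 further genes of receptor signalling, 2 fell in knockouts and 5 in controls, and 0 rose in either by limma (1 higher at an unadjusted p under 0.05 in each). Prkcb, the protein kinase C that passes the signal to NF-κB, was 5.83, 5.43 and 5.47 (log2) in hypoxic knockouts, against 6.85, 6.62 and 6.83 in normoxic knockouts, and 5.88, 5.87 and 5.84 in hypoxic controls, against 6.42, 6.56 and 6.33 in normoxic controls. All hypoxic arrays lay below all normoxic arrays. Prkcb fell by 1.19 ± 0.11 in knockouts (adjusted p = 0.00082) and by 0.57 ± 0.11 in controls (adjusted p = 0.011). Ptprc, which encodes CD45 of all leukocytes, fell by 0.98 ± 0.17 in knockouts (adjusted p = 0.018) and by 0.87 ± 0.17 in controls (adjusted p = 0.010). Malt1, Rel and Rasgrp3 fell in controls as well, by 0.59, 0.52 and 0.40.

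Plasma cells arise from B cells and switch off much of the B cell programme. Of 10 plasma cell genes 0 were called in knockouts by limma (2 at an unadjusted p under 0.05, both higher), against 1 that rose in controls, and their medians were 0.03 and 0.06. The 1 was Sdc1, also made by epithelium, which rose by 0.38 ± 0.10 (limma adjusted p = 0.032). Jchain, which joins secreted IgM and IgA, differed by 0.21 between hypoxia and normoxia in knockouts and by 0.03 in controls. It was 8.35, 7.96 and 8.14 (log2) in hypoxic knockouts, against 6.61, 6.95 and 7.75 in hypoxic controls, and 7.73, 7.66 and 8.43 in normoxic knockouts, against 7.37, 6.44 and 7.39 in normoxic controls. Knockouts lay above controls without overlap at both oxygen levels, by 1.05 ± 0.32 and 0.88 ± 0.32, and neither difference was called (adjusted p = 0.95 and 0.63).

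Other leukocyte lists had medians nearer 0 than the members. In knockouts the median was -0.22 for 15 T cell genes, -0.28 for 10 NK cell genes, 0.03 for 9 genes of plasmacytoid dendritic cells, -0.04 for 11 myeloid genes and -0.20 for 13 genes of all leukocytes. In controls it was -0.04, -0.21, 0.07, 0.03 and 0.01 for the same lists. Among T cell and NK cell genes 0 were called in knockouts by limma (6 and 4 at an unadjusted p under 0.05, all lower), while Cd8a fell by 0.59, Klrd1 fell by 1.29 and Ncr1 fell by 0.54 in controls and the T cell factor Bcl11b rose by 0.30. Cd68 of macrophages rose by 0.85 in both genotypes, and Mrc1 rose by 0.56 in controls. S100a9 of neutrophils fell by 0.60 in knockouts and by 0.42 in controls. S100a9 and Bcl11b read at most 4.26 and 4.37 in any array, below 4.54, in the range of weak signal. The list of all leukocytes shares Cd37 with the members. These lists differ in size and in what their probe sets can resolve, and the difference between their medians and that of the members was not tested.

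**Figure D4:**
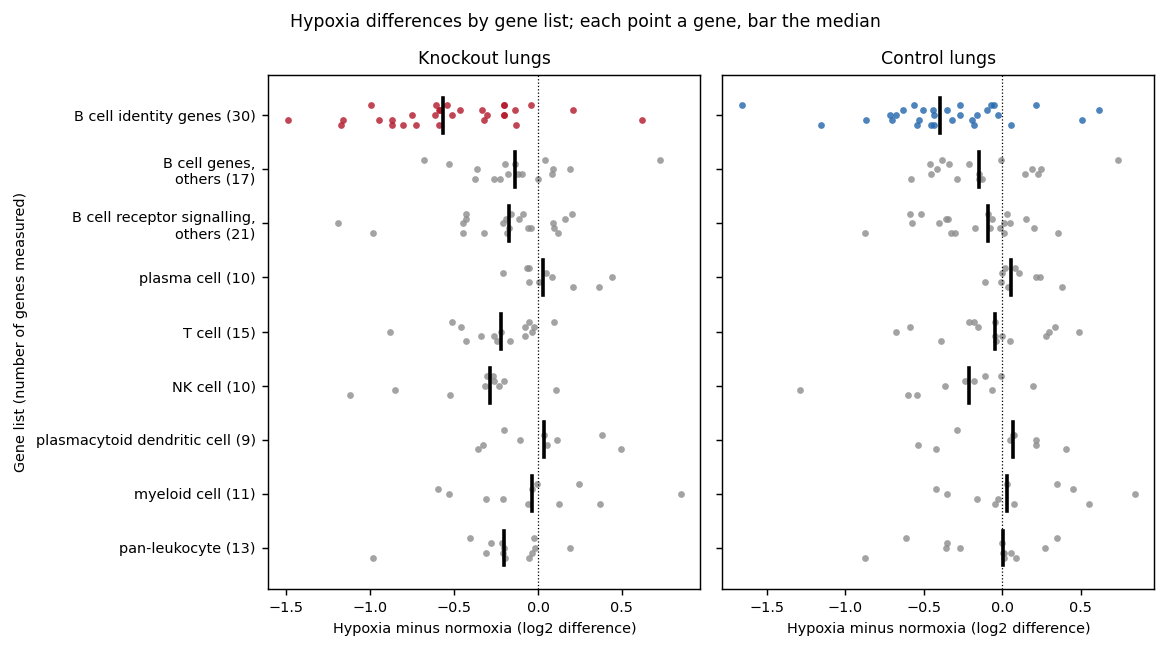
Each grey or coloured point is the log2 difference between hypoxia and normoxia of 1 gene, in knockout lungs (left) and control lungs (right), with 1 line per gene list and a black bar at the list's median. The 30 B cell identity genes have medians of -0.56 and -0.39, and the 10 plasma cell genes medians of 0.03 and 0.06.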

How the data were processed

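Whole-lung RNA was hybridised as biotin-labelled cRNA to Affymetrix arrays. The deposited values are log2 expression by probe set and array, made by the authors with RMA, per the submitters' processing notes, with a version not given in the sources used here. RMA corrects background, brings arrays to 1 distribution and summarises probes, so a change in total RNA cannot be seen. The 25428 probe sets held values from 2.41 to 13.7, with the same sorted values in all 12 arrays. A single symbol was paired with 24705 and none with 723, and the highest-mean probe set per symbol was kept. No filter on low values was used, and the number of arrays limits the precision.

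Each gene was fitted in limma 3.58.1 (R 4.3.3) with a mean for each group, which leaves 8 residual degrees of freedom, and moderated by empirical Bayes. Tests were two-sided for 7 contrasts, with Benjamini-Hochberg adjustment over 24704 genes and a call below 0.05, and limma is the source of all adjusted p-values given. Counts of genes at an unadjusted p under 0.05 are given without the share of all genes at that threshold and are a description. The fit was tested on simulated data, and arrays of a group correlated with r from 0.989 to 0.994.

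The 31 members and the other gene lists were chosen with earlier results of these data known. Members called in any contrast, Cd79a, Cd79b, Ms4a1, Pax5 and Ebf1 are given by array. From other lists up to 4 genes with the smallest adjusted p were named, plus a few fixed genes. Array values of Cd83, Tnfrsf13c, Prkcb and Jchain, and the genes Rel and Cspg4 outside the limit of 4, were added after their values were seen. Promoter sequences are from RefSeq (GRCm38.p6). Other settings were an intensity trend, robust moderation, a low-value filter, all probe sets, fitting the compared groups alone, replicate number as a block, nuclear RNA or Y-linked means as covariates, a threshold of 0.1, and leaving out each array. After the data were seen, 2 were added: the nuclear mean without Xist, and leaving out the arrays with high Ucp1.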

Additional observations from a re-analysis of the deposited data

How the results depend on the processing

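With 3 arrays a group and values without detection calls, small changes and weak probe sets are poorly resolved, and 4 members (Cr2, Fcrl1, Bcl11a and Tnfrsf13b) lie below the low-value filter of 4.54. The number of members that fell was 6 in knockouts, 10 in controls and 15 over both genotypes. In knockouts it was 1 with the replicate block and 2 without the arrays with high Ucp1, where 0.162% and 0.206% of all genes were called in either direction in place of 1.14%. In controls it was 0 with the nuclear RNA mean without Xist as a covariate, which called 0 genes of all tested, and 6 without the arrays with high Ucp1 (11.5% of all genes called, as with them). Over both genotypes it was 0 with that covariate (0.0405% of all genes called). The number that rose was 0 in controls, but 1 with the low-value filter or at an adjusted p under 0.1, and 2 without the arrays with high Ucp1. Over both genotypes 1 rose, but 2 with the filter, at that threshold or without the arrays with high Ucp1, and 0 with the Y-linked covariate or the nuclear mean without Xist. Medians of the members in controls were -0.725 with that covariate and -0.15 without the arrays with high Ucp1, and -0.69 over both genotypes with the covariate. Leaving out 1 array gave 3 to 7 that fell in knockouts (3 without hypoxic knockout 4 or normoxic knockout 2, with 0.324% and 0.287% of all genes called), 3 to 10 in controls (3 without normoxic control 2, with 3.96% of all genes called, 5 without hypoxic control 2 or normoxic control 1) and 11 to 15 over both genotypes; 0 to 2 rose in controls and over both genotypes, and 0 in knockouts. Counts for genotype and interaction were 0 under every setting run. Of 683 values of 32 called differences under other settings, 552 kept direction and call, 130 lost the call and 1 reversed: Bach2 in controls was 0.055 with the nuclear mean without Xist. Cr2 kept its call in knockouts in all 21 settings that tested it, and Bank1, Ralgps2 and Cd55 kept theirs in controls in 21 of 22 each. The exception for Cd55 was the nuclear mean without Xist, which gave -0.29 (adjusted p = 0.92) in place of -1.66. The cause of these shifts was not tested. After group means were removed, 4 of 15 same-number pairs of arrays had a correlation over 0.1 (range -0.25 to 0.28). Pairs with different numbers were not compared, so whether replicate numbers pair the animals was not settled. The replicate block gave 9 that fell in controls and 14 over both genotypes.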
